A study of Mus musculus with 3 samples.

Results

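The Slc25 genes encode the mitochondrial carriers, and 46 of them were represented on arrays that compared mouse aortas labelled Plk1(+/-) with a wild-type pool. The members were all non-control probes whose gene name on the array, or whose current symbol, starts with Slc25a. This gave 78 probes of 60 bases, 53 by the name in the files, 17 by accession alone and 8 by an older synonym alone, out of 41174 probes, and the 46 genes are among 27670 named on the array. Each of 3 two-colour arrays on 1 slide held RNA of an individual Plk1(+/-) aorta sample in Cy5 and a pool of 3 Plk1(+/+) aorta samples, the same on every array, in Cy3. Plk1 encodes polo-like kinase 1, a mitotic kinase, and the label gives these animals as heterozygous, without naming the allele. All animals were 129/CD1 mice of 3 to 5 months. The design asks how transcripts of the vessel differ when an allele of Plk1 is missing. The deposited growth conditions are those of cultured ES cells, although each sample is labelled as aorta, and the latter was followed here.

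Mitochondrial carriers sit in the inner mitochondrial membrane and exchange ATP, phosphate, acids, amino acids, cofactors and iron between the mitochondrial matrix and the cytosol. The proteins are built of tandem repeats, each with a pair of membrane-spanning helices, and the repeats share a signature of a proline followed by an acidic and then a basic residue. Most carriers are imported through the outer membrane pore and the TIM22 complex, and different tissues use different members of the same subgroup. In an artery the carriers of smooth muscle, endothelium, fibroblasts, nerve, blood and the fat and muscle around the vessel are measured together, so fewer cells of a type and less RNA per cell cannot be told apart in this bulk RNA.

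The family signature can be read in some of the probes themselves. A search of the deposited sense-strand probe sequences, in any frame, for 6 codons coding a proline, any residue, aspartate or glutamate, any pair of residues, and lysine or arginine found 4 of the 78 member probes (5.13%), against 464 of all 41174 probes (1.13%). The share describes these 60-base windows alone, and a probe without a match may still lie in a gene that codes for the signature. For 3 of these probes the sequence follows 5′ to 3′ with the 6 codons in capitals, because they show what the family has in common. Probes of a gene are numbered from the brightest, and probe 3 of Slc25a30 did not pass the background filter and was not tested.
Slc25a26 probe 2: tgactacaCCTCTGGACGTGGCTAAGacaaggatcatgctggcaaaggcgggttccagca
Slc25a3 probe 2: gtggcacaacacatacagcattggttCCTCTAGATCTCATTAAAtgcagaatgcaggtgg
Slc25a30 probe 3: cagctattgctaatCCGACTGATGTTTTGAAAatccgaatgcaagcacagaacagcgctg
The array design places the Slc25a26 probe at chr6:94686499-94687292 on the plus strand, the Slc25a3 probe at chr10:90680977-90681034 on the minus strand and the Slc25a30 probe at chr14:70449984-70450552 on the minus strand of mm7, where a span longer than the probe crosses a gap. Exon and UTR annotation was not used here.

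Across all probe spots, signal was well above background for 66.0% to 69.0% in Cy3 and 77.0% to 80.8% in Cy5, and having only 3 arrays limits how precise any ratio is. The ratio is always the labelled sample over the pool, in log2. The dyes were never swapped, so dye and genotype cannot be told apart. The pool counts as 1 control sample, and a test of the ratio against 0 leaves out the spread between wild-type animals. Ratios of the 3 arrays correlated across unsaturated probes at 0.36 for samples 1 and 2, 0.21 for 1 and 3 and 0.54 for 2 and 3, a description in which the shared pool enters every array. Plk1 itself read -0.06, -0.08 and 0.42 (limma adjusted p = 0.705), so directions refer to the labels. Signal was above background for all 8 smooth muscle and all 6 endothelial markers, but also for every listed marker on the array of skeletal muscle (7), heart muscle (6), brown fat (7), white fat (6), lymphocytes (6), neurons and Schwann cells (6) and red cells (5), so presence of signal does not check the tissue label.

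As a family, the carriers lay close to the wild-type level. The median log2 ratio over the 40 genes with a probe free of saturation was 0.02 (quartiles -0.05 and 0.13), beside 0.04 over 21628 genes measured the same way. Means within 0.25 of 0 were found for 35 of the 40 genes (87.5%), against 78.5% of all genes. In samples 1, 2 and 3 the family median was 0.02, 0.09 and -0.01, against 0.04, 0.02 and 0.04 over all genes. The median over genes of the SD between samples was 0.17 for the carriers and 0.15 for all genes. The family median is no direction: it was -0.01 with the scanner software's own ratio and 0.41 when each array was only centred on its median in place of loess, a change that also moved the median of all genes from 0.04 to 0.23.

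Of 66 carrier probes above background, 2 passed a limma adjusted p under 0.05, both with a normalized ratio below 0. The share over all 32486 probes kept was 0.631% lower and 0.0308% higher. Both carrier calls are probes of Slc25a4 with a saturated Cy5 spot on every array, so their sign is no measured direction. Over the whole array, 184 calls fell on the 596 saturated probes and 31 on the 31890 unsaturated ones. With median centring 33 carrier probes passed, 26 higher and 7 lower, but so did 13590 of all 32486 probes. Among the 33 were Slc25a3 probe 1 (0.51), Slc25a16 (0.64), Slc25a28 (0.56), Slc25a39 probe 1 (0.70) and Slc25a46 probe 1 (0.64). Of the 62 probes without a saturated spot, 0 passed, against 0.0659% lower of all 31890 such probes. At an unadjusted limma p under 0.05 were 4 lower and 4 higher of the 62, against 8.95% lower and 8.98% higher of all unsaturated probes, so neither share exceeded the background. The sign was the same on all 3 arrays for 20 carrier probes, 11 lower and 9 higher (32.3%), against 44.4% of all unsaturated probes, and the other 42 had mixed signs.

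**Figure D1:**
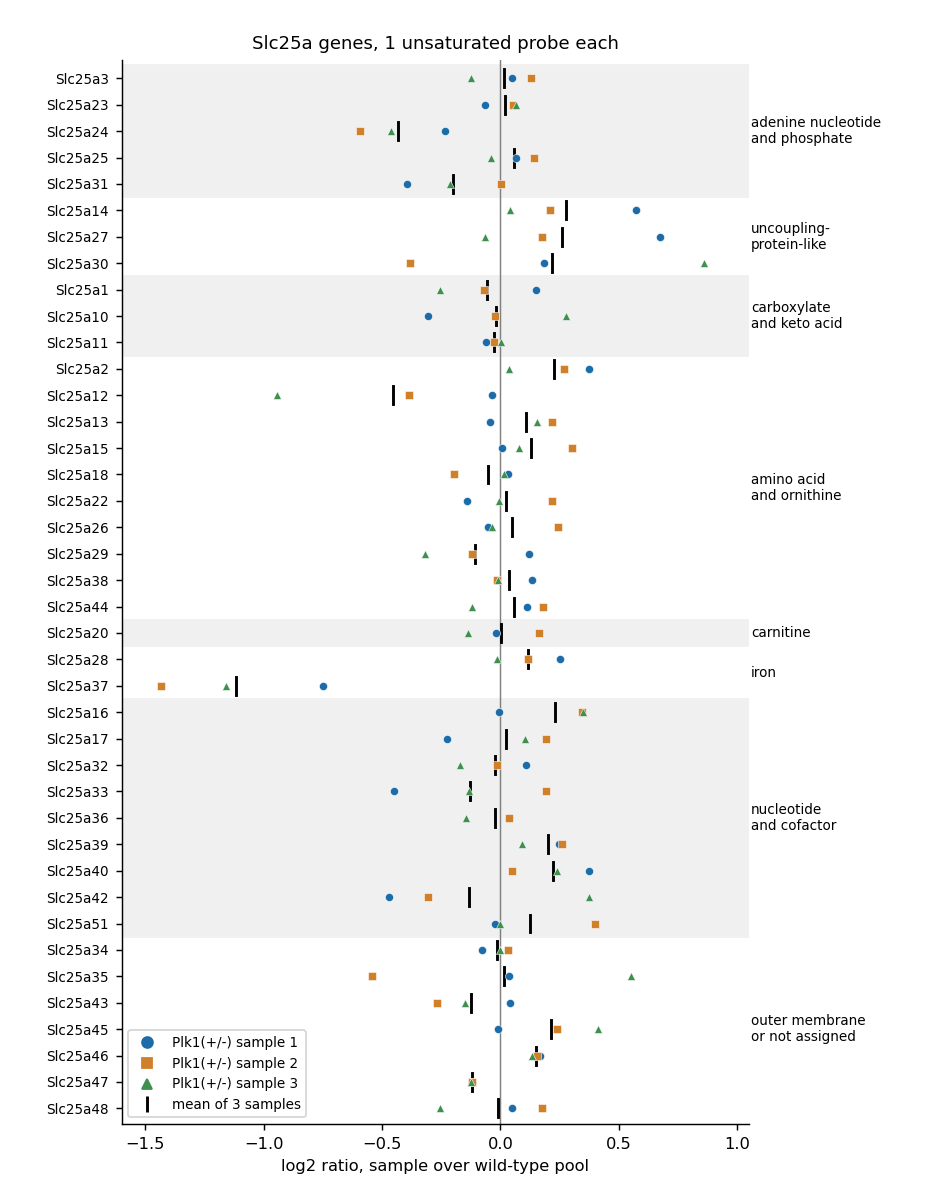
The plot gives, for the brightest unsaturated probe of each of 40 carrier genes grouped by role, the log2 ratio of samples 1, 2 and 3 over the wild-type pool (symbols) and their mean (vertical bar). Most genes sit within 0.25 of 0, and Slc25a37 alone lies beyond -0.5 in all 3 samples.

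Among the adenine nucleotide carriers, which exchange matrix ATP for cytosolic ADP, the widely expressed members were too bright to measure. Slc25a4, the form of heart and muscle, had a Cy5 signal at the scanner's ceiling of 65223 units with both of its probes on every array. Its Cy3 signal was 46310.1, 64755 and 64415 on the arrays of samples 1, 2 and 3 with probe 1 and 42618, 44968 and 43454 with probe 2. With probe 1, Cy3 was also flagged as saturated on 1 array. Cy5 cannot be read above the ceiling whatever the sample held, so no fold and no bound is given for the calls (limma adjusted p = 0.0485 and 0.0226 for probes 1 and 2). Both calls were lost without sample 2 (0.396 and 0.292) and without sample 3 (0.141 and 0.117), and over all alternatives the adjusted p ran from 0.0157 to 0.396 and from 0.00809 to 0.292. Slc25a5, the form of dividing cells, had Cy5 at the ceiling on all arrays and Cy3 at 37741, 52116 and 36249.7, and did not pass (limma adjusted p = 0.115). Saturated spots occurred on 4 of the 66 carrier probes (6.06%) and on 596 of all 32486 probes (1.83%).

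**Figure D2:**
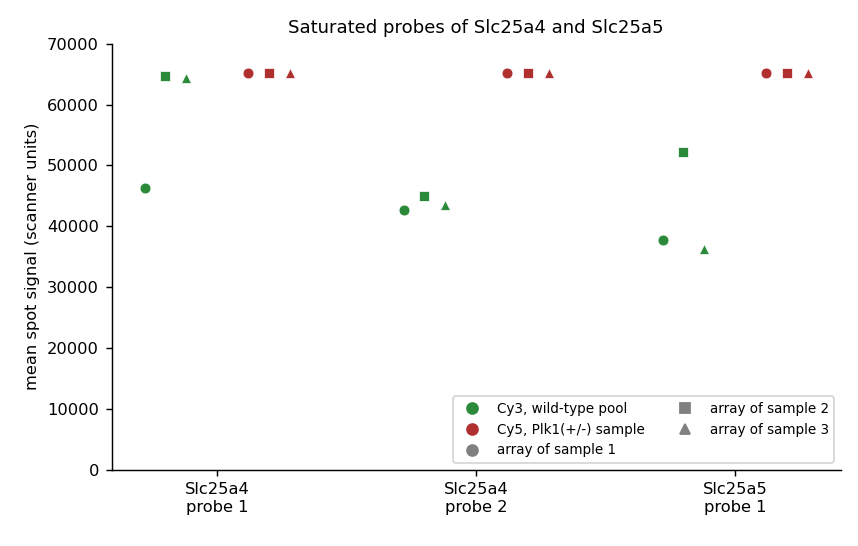
The plot gives the mean spot signal, in scanner units, of Cy3 (wild-type pool, green) and Cy5 (labelled sample, red) on the 3 arrays for the 3 saturated probes of Slc25a4 and Slc25a5. Every Cy5 value lies at the ceiling of 65223, and Cy3 comes closest to it for Slc25a4 probe 1 on the arrays of samples 2 and 3, at 64755 and 64415. Cy3 of that probe was itself flagged as saturated on 1 array.

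The probes of Slc25a4 and Slc25a5 also cover the same stretch of both transcripts. Aligned with a shift of 6 bases they overlap by 54 bases, 45 of which match and 9 of which differ (83.3% identity). The probes are shown whole because their likeness bears on how apart these genes can be read, and capitals mark the bases that differ within the overlap.
Slc25a4 probe 1: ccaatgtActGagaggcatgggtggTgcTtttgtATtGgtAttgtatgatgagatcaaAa
Slc25a5 probe 1: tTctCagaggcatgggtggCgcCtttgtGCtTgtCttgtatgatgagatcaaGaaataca
They lie at chr8:44985343-44985402 on the minus strand and chrX:31558243-31558302 on the plus strand of mm7. Binding of a transcript to the other gene's probe was not tested.

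Slc25a3, the carrier that brings phosphate into the matrix for ATP synthesis, gave different readings with its 3 probes. Probe 1 read 0.05, 0.13 and -0.13 in samples 1, 2 and 3, averaging 0.02 ± 0.13 (SD, n = 3). Probe 2 read -0.52, -0.57 and -1.10, lower in all 3 samples and lowest in sample 3, with a mean of -0.73 ± 0.32 that did not pass (limma adjusted p = 0.157). Probe 3 read -0.17, 0.14 and 0.49, so the ranges of probes 2 and 3 do not overlap while those of probes 1 and 3 do. Probe 3 was dim, with Cy3 signals of 117 to 127 units over a local background of 52 to 53, against 1029 to 1077 for probe 2. Probe 2 lay between -0.84 and -0.36 over all alternatives, the latter with median centring. Transcripts of this gene are known to use alternative coding exons, one of them in heart and skeletal muscle, and which exon each probe covers was not analysed here. The first 30 bases of the other probes follow for comparison with probe 2, printed above with its signature codons.
Slc25a3 probe 1: tatgccaacaccttgagggaagctgttccc
Slc25a3 probe 3: cacagtgttgttaaacaaatagataccaag
Probe 1 is placed at chr10:90676988-90677529 and probe 3 at chr10:90679368-90679427 of mm7, both on the minus strand.

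Skeletal muscle markers were low in the same samples as probe 2. Their medians were -0.69, -0.95 and -2.97, and 5 of the 7 markers had an unadjusted limma p under 0.05, all lower. Their summed normalized signal was 163465 to 194445 in the pool and 25418 to 116040 in the samples. Heart muscle markers had medians of -2.33, 0.20 and -2.68, with 2 of 6 at that level, and summed to 29232 to 40386 in the pool and 15069 to 28084.5 in the samples. No marker of either list was at background, and the part of these tissues in the reading of probe 2 was not tested. The skeletal muscle median stayed negative under all 17 settings (-1.86 to -0.82).

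The calcium-regulated ATP-Mg and phosphate carriers adjust the adenine nucleotide content of the matrix. Slc25a24 probe 1 read -0.24, -0.59 and -0.46, lower in every sample, with a mean of -0.43 ± 0.18 (SD, n = 3; limma adjusted p = 0.174), and -0.06 with median centring. Probe 2 read 0.14, 0.10 and 0.08, higher in every sample, so the readings of the probes do not overlap, but its mean of 0.10 was -0.15 with median centring and -0.09 with the scanner ratio. Its Cy3 signal of 99.1 to 102 units lay near the local background of 52 to 53, while that of probe 1 was 893 to 1179. The start of each is given because both were designed on the same transcript.
Slc25a24 probe 1: catcttgtatcttttttggggaaaaaaccc
Slc25a24 probe 2: aggctttggggctttttacaaaggctacat
Probe 1 is placed at chr3:108986636-108986695 and probe 2 at chr3:108979588-108979647 of mm7, both on the plus strand. Smooth muscle markers had medians of -0.46, -1.62 and -1.05 in samples 1, 2 and 3, with 7 of 7 unsaturated markers at an unadjusted limma p under 0.05, all lower. Like Slc25a24 probe 1 they were lowest in sample 2, and their summed signal was 93034 to 100821 in the pool and 33660.4 to 62921.5 in the samples. Fibroblast markers had medians of -0.25, -0.42 and -0.28, with 4 of 6 at that level, and summed to 79967 to 92127 and 46237 to 56269.5. The part of these cells in the reading of Slc25a24 was not tested.

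The other members of this group stayed near 0. Slc25a31, an adenine nucleotide carrier of the testis, read -0.39, 0.0026 and -0.21 (mean -0.20 ± 0.20, SD, n = 3; limma adjusted p = 0.351). Slc25a23 and Slc25a25, further ATP-Mg carriers, had 3 probes between 0.02 and 0.06. Slc25a41 did not pass the background filter.

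Of the iron importers, Slc25a37 had the lowest mean of any unsaturated carrier probe. Slc25a37 is mitoferrin 1, the importer that supplies iron for heme synthesis in red cell precursors. Probe 1 read -0.75, -1.44 and -1.16 in samples 1, 2 and 3, lower in 3 of 3, and lowest in sample 2. The mean was -1.11 ± 0.35 (SD, n = 3), 2.17-fold lower, with a limma adjusted p of 0.0946, which misses the threshold. That p fell to 0.0456 without sample 1, 0.0375 with array weights and 0.0341 under median centring (at a smaller mean of -0.67), and rose to 0.455 without sample 2, 0.206 without sample 3 and 0.212 with saturated probes left out of the fit. A weaker probe 2 of the same transcript read -0.07, -0.16 and -0.02, outside the range of probe 1, with Cy3 signals of 137 to 149.7 against 3357 to 3582.5 for probe 1. The beginnings of both are shown, since the reading rests on probe 1 alone.
Slc25a37 probe 1: taagagtggcctagtgttgctttccgaatg
Slc25a37 probe 2: ctatgagtttctgcaggagcaagtcaaccc
They are placed at chr14:64104507-64104566 and chr14:64107682-64107741 of mm7, both on the minus strand.

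Red cell marker medians were low in the same order of samples. This order was shared by the smooth muscle (-0.46, -1.62 and -1.05) and fibroblast medians (-0.25, -0.42 and -0.28). The red cell medians were -0.50, -1.19 and -0.91, and all 4 unsaturated red cell markers had an unadjusted limma p under 0.05. Alas2, the erythroid enzyme that starts heme synthesis, read -0.43, -1.30 and -1.02, while Epb42 read -0.52, -0.32 and -0.76, in another order. The anion exchanger gene Slc4a1 read -1.21, -1.36 and -1.31 and was the 1 listed marker that passed (limma adjusted p = 0.0105), a call lost with saturated probes left out, without sample 2 and without sample 3, where 0 probes of the whole array passed. The summed signal of the 4 was 20097 to 26191 in the pool and 9855 to 15058 in the samples, a hemoglobin marker on the array (Hba-a1) was saturated, and no marker was at background. The list's median stayed between -1.59 and -0.69 under all 17 settings. The part of red cells, smooth muscle or fibroblasts in the Slc25a37 reading was not tested. Slc25a28, mitoferrin 2, which supplies iron in other cells, read 0.25, 0.12 and -0.01 (mean 0.12 ± 0.13, SD, n = 3), so its range does not overlap that of Slc25a37 probe 1.

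**Figure D3:**
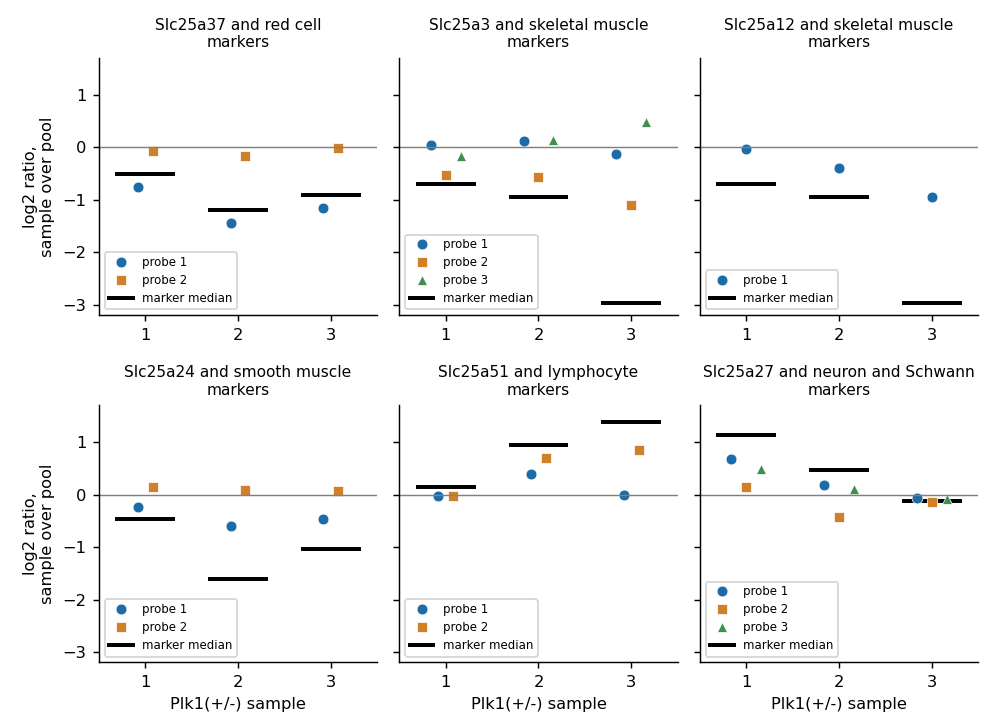
Each panel gives the log2 ratio of every kept probe of a carrier gene in samples 1, 2 and 3 (symbols) and the median of a cell type's unsaturated markers in the same samples (black bars). Slc25a37 probe 1 and the red cell median are both lowest in sample 2, and Slc25a3 probe 2, Slc25a12 and the skeletal muscle median are all lowest in sample 3. Other marker lists were also lowest in these samples, as the text gives.

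The uncoupling-protein-like carriers, named for their likeness to the proton-leak protein of brown fat, include Slc25a14 and Slc25a27, known from the nervous system, and Slc25a30, known from kidney. Slc25a14 probe 1 read 0.58, 0.21 and 0.04, higher in 3 of 3 samples, with a mean of 0.28 ± 0.27 (SD, n = 3; limma adjusted p = 0.317). Probe 2 read 0.19, 0.16 and 0.19, but was not well above background in Cy3 on any array, and its mean of 0.18 ± 0.02 turned to -0.42 with median centring. Slc25a27 probe 1 read 0.67, 0.18 and -0.06, high in sample 1 alone (mean 0.26 ± 0.38, SD, n = 3). Its probe 3 read 0.48, 0.11 and -0.08 in the same order of samples, but was not well above background in Cy3 on any array, and its mean of 0.17 was -0.22 with median centring. Probe 2 read 0.14, -0.42 and -0.13. Slc25a30 probe 1 read 0.18, -0.38 and 0.86, with a spread larger than its mean of 0.22, and probe 2 read -0.21, 0.07 and 0.27 in another order of samples.

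Neuron and Schwann cell markers were highest in sample 1 too. Their medians were 1.13, 0.46 and -0.13, with 1 of 6 at an unadjusted limma p under 0.05 and none at background, and their summed signal was 7949 to 9746 in the pool and 6819.8 to 22685 in the samples. Slc25a14 probe 1 and Slc25a27 probe 1 had the same order of samples as these medians, as did the dim probe 3 of Slc25a27. Endothelial medians of 0.15, -0.07 and -0.22 and skeletal muscle medians of -0.69, -0.95 and -2.97 had that order as well. The part of nerve, endothelium or muscle in these probes was not tested. The uncoupling proteins proper lie outside the Slc25a symbols. Ucp1, the brown fat protein, was saturated in both dyes on all arrays, Ucp2 read 0.45, -0.02 and 0.25, and Ucp3, chosen after its values were seen, read -0.60, 0.22 and 0.51.

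The carriers of citrate, dicarboxylates and oxoglutarate did not differ from the pool beyond their spread. Slc25a1, which exports citrate for lipid synthesis, read 0.15, -0.07 and -0.25 (mean -0.06 ± 0.20, SD, n = 3). Slc25a10, which carries malate and succinate against phosphate, read -0.31, -0.02 and 0.28 (mean -0.02 ± 0.29). Slc25a11, the oxoglutarate-malate exchanger of the malate-aspartate shuttle, read -0.06, -0.03 and 0.0042 (mean -0.03 ± 0.03). The signs of all 3 depend on the normalization, with means under median centring of 0.44 for Slc25a1, 0.44 for Slc25a10 and 0.47 for Slc25a11. Slc25a21, the oxoadipate carrier, did not pass the background filter with its 2 probes. Slc25a20, which exchanges acylcarnitine for carnitine in fatty acid oxidation, read -0.02, 0.16 and -0.14, averaging 0.0032 ± 0.15 (SD, n = 3; limma adjusted p = 0.988), and a mean of 0.49 that passed with median centring (0.0228).

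Among 10 amino acid and ornithine carriers, 0 of 12 unsaturated probes reached an unadjusted limma p under 0.05. Slc25a12, the aspartate-glutamate carrier of muscle and brain, read -0.03, -0.39 and -0.94, lowest in sample 3, where the skeletal muscle markers were also lowest (-0.69, -0.95 and -2.97). Its mean was -0.45 ± 0.46 (SD, n = 3; limma adjusted p = 0.295), and -0.21 without sample 3 and -0.03 with median centring. The start of its 1 kept probe, at chr2:71118632-71118691 on the minus strand of mm7, is given because it had the largest spread of this group.
Slc25a12 probe 1: cgtgttgaaatgttttctgagccttggcat
Slc25a13, the form known from liver, had 1 probe and lay with the members near 0. Slc25a2 and Slc25a15, which carry ornithine for the urea cycle, read 0.38, 0.27 and 0.04 and 0.0089, 0.30 and 0.08, with means of 0.23 ± 0.17 and 0.13 ± 0.15 (SD, n = 3 each). Slc25a26, which brings S-adenosylmethionine into the matrix, read -0.05, 0.24 and -0.04 with probe 1 and -0.24, 0.15 and -0.05 with probe 2, highest in sample 2 with both. The remaining 6 genes of the group (Slc25a13, Slc25a18, Slc25a22, Slc25a29, Slc25a38 and Slc25a44) had 7 probes with means from -0.11 to 0.11.

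Carriers of nucleotides and cofactors included the highest mean of an unsaturated carrier probe. Slc25a51, the importer of NAD, read -0.02, 0.70 and 0.86 with probe 2, at the pool's level in sample 1 and above it in samples 2 and 3. The mean was 0.51 ± 0.47 (SD, n = 3; limma adjusted p = 0.266) and was 0.34 without sample 3 and 0.87 with median centring, where it passed (0.0348). Probe 1 of the gene read -0.02, 0.40 and -0.0015, with a mean of 0.13 ± 0.24. Probe 2 was assigned through an older synonym, and the starts of both probes are shown so that the match can be checked.
Slc25a51 probe 1: cagaatgtccttgtgctgtttttactgaat
Slc25a51 probe 2: taggaaccagtttatcagagttaagttagt
They are placed at chr4:45412423-45412482 and chr4:45421253-45421312 of mm7, both on the minus strand. Lymphocyte markers had medians of 0.14, 0.94 and 1.38, with 4 of 6 at an unadjusted limma p under 0.05, all higher, and none at background. Their summed signal was 2221 to 2579.6 in the pool and 2402 to 9219 in the samples. Brown fat medians, over 3 unsaturated markers, had the same order of samples, at -0.66, 0.39 and 0.60. The part of lymphocytes or brown fat in the Slc25a51 reading was not tested.

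The glutathione carriers Slc25a39 and Slc25a40 each had probes of opposite sign. Slc25a39 probe 1 read 0.25, 0.26 and 0.09 (mean 0.20 ± 0.09, SD, n = 3; limma adjusted p = 0.26) and probe 2 read -0.18, -0.08 and -0.47 (mean -0.24 ± 0.20). Slc25a40 probe 1 read 0.38, 0.05 and 0.24 (mean 0.22 ± 0.16) and probe 2 read -0.19, -0.20 and -0.20. The mean of that probe 2, -0.20 ± 0.0047, rested on Cy3 signals of 94.6 to 113, and its limma adjusted p was 0.233. No direction is given for either gene.

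The other cofactor carriers had means between -0.19 and 0.23. Slc25a16, linked to coenzyme A, read -0.0054, 0.35 and 0.35 (mean 0.23 ± 0.20, SD, n = 3). The pyrimidine nucleotide carrier Slc25a33 was highest in sample 2 with both probes, at -0.45, 0.19 and -0.13 and -0.14, 0.44 and -0.03. Its relative Slc25a36 read 0.04, 0.04 and -0.15 and 0.23, 0.0091 and -0.02. Slc25a17, which carries cofactors across the peroxisomal membrane, had 3 probe means of 0.02, -0.19 and -0.05, each lowest in sample 1. Slc25a32 (folate and FAD) and Slc25a42 (coenzyme A) had means of -0.02 and -0.13 with their 1 probe each.

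The last group holds Slc25a46, a protein of the outer membrane involved in mitochondrial shape, and members whose substrate is not assigned here. Slc25a46 read 0.17, 0.16 and 0.13 with probe 1, -0.14, 0.16 and -0.10 with probe 2 and 0.07, 0.35 and 0.31 with probe 3, whose mean of 0.25 ± 0.15 (SD, n = 3; limma adjusted p = 0.251) was the highest of the group. Slc25a45 read -0.01, 0.24 and 0.41 (mean 0.21 ± 0.21), and Slc25a47, known from liver, read -0.12 on each array (mean -0.12 ± 0.0014; limma adjusted p = 0.368). Slc25a35 shows how far probes can differ in spread, with 0.04, -0.54 and 0.55 for probe 1 and -0.02, -0.04 and -0.02 for probe 2. Slc25a34, Slc25a43 and Slc25a48 had 4 probes with means between -0.18 and -0.0096. Slc25a54, found through a synonym, did not pass the background filter.

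Different probes of a gene often differed in the sign of their mean. Of 18 carrier genes with more than 1 unsaturated probe, 11 had probe means of opposite sign. Some of these lay close to 0, as for Slc25a35 (-0.03 and 0.02), Slc25a26 (-0.05 and 0.05) and Slc25a36 (-0.02 and 0.07). The share over all genes of the array was not worked out, so whether the count is particular to the carriers is not known. The median distance between the lowest and the highest probe mean was 0.22. For 10 of the 18 genes that distance was under 0.25. It was largest for Slc25a37 (1.03), Slc25a3 (0.88) and Slc25a24 (0.53). With Slc25a12 these 3 genes hold the 4 lowest means of unsaturated carrier probes, so for them each of those means belongs to a probe and not to every measured stretch of the transcript.

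**Figure D4:**
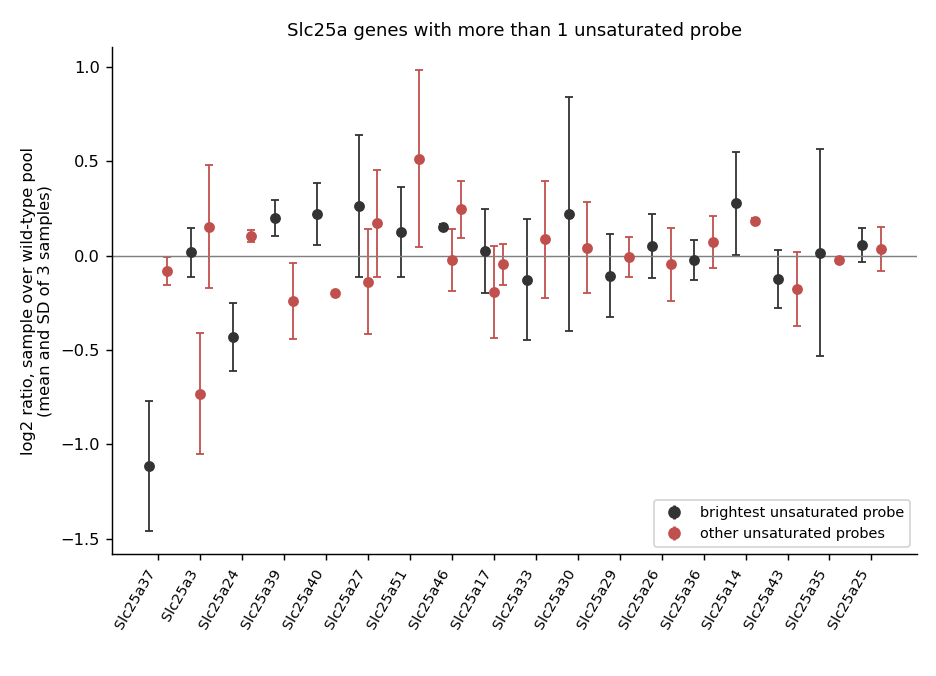
The plot gives the mean log2 ratio over the 3 samples, with the SD as error bar, of each unsaturated probe of the 18 carrier genes with more than 1 such probe, ordered by the distance between their probes. Slc25a37, Slc25a3 and Slc25a24 stand at the left with distances of 1.03, 0.88 and 0.53, and Slc25a25 at the right has probes at 0.06 and 0.03.

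Genes that work with the carriers were examined beside them from 11 lists. Of 100 partner genes with an unsaturated probe, 0 passed in limma, and 14 lower and 10 higher had an unadjusted p under 0.05, against 1888 lower and 2114 higher of 21628 genes. Carrier import held 16 such genes, 4 higher and 2 lower at that level. The higher ones were subunits of the outer membrane import pore, with means of 0.32 ± 0.11 for Tomm7, 0.27 ± 0.04 for Tomm5, 0.24 ± 0.09 for Tomm6 and 0.26 ± 0.14 for Tomm20 (SD, n = 3 each), while the pore protein gene Tomm40 read -0.27 ± 0.10 and the small chaperone gene Timm9 -0.18 ± 0.05. Timm22, the channel that inserts the carriers, read -0.11, 0.03 and 0.35, and Tomm6, Tomm20, Timm9 and Timm22 were chosen after their values were seen. The list's median of 0.05 ranged from -0.0030 to 0.53 over the settings.

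Of the respiratory chain and ATP synthase list, which consumes the phosphate and ADP brought in by carriers, 20 of 25 genes had only saturated probes. The 5 measured genes had medians of 0.03, 0.14 and 0.01 in samples 1, 2 and 3. In the malate-aspartate shuttle and TCA cycle list, Got1, the cytosolic aspartate aminotransferase that works with Slc25a12, read -0.25, -0.34 and -1.44, again lowest in sample 3, and Got2 read 0.16, -0.12 and -0.43. Both were chosen after their values were seen. By the naming rule, Sdha read 0.32 ± 0.10, Dlst -0.33 ± 0.18 and Idh2 -0.30 ± 0.15 (SD, n = 3 each). The list of mitochondrial biogenesis regulators also held the creatine kinase genes Ckmt2 and Ckmt1. Ckmt2, the mitochondrial creatine kinase of striated muscle, read -1.15, -1.42 and -3.85, beside skeletal muscle medians of -0.69, -0.95 and -2.97. Ckmt1, the form of other tissues, read 1.20, 0.53 and -0.11.

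In the iron, heme and iron-sulfur list 3 of 14 genes were lower and 1 higher at an unadjusted limma p under 0.05. The ferrochelatase gene Fech, which inserts the iron into heme, read -0.27, -0.22 and -0.26, and the preceding enzyme gene Ppox read -0.23, -0.24 and -0.19. Ftl1, the ferritin light chain, read 0.40, 0.28 and 0.16. The list's median over samples was -0.01, beside -1.11 for Slc25a37 probe 1. In the one-carbon and cofactor list Aldh1l2 read -0.50 ± 0.10 and Mthfd1l 0.29 ± 0.12 (SD, n = 3 each), with 2 lower and 2 higher of 8 at that level. In the ornithine, glutamate and branched-chain list 3 of 12 were lower and 1 higher, with Dbt at -0.32 ± 0.21, Glul at 0.42 ± 0.32 and Oat at -0.27 ± 0.20.

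The other lists had at most 1 gene at that level in either direction. Their medians were -0.01 for the carnitine system (Cpt1a 0.24 ± 0.20, SD, n = 3 here and below) and -0.04 for citrate and fatty acid synthesis (Acly -0.19 ± 0.64). The outer membrane channels had a median of 0.12 (Vdac1 0.17 ± 0.11). The biogenesis regulator list, with its creatine kinases, had 0.06 (Ckmt2 -2.14 ± 1.49 and Tfb1m 0.21 ± 0.10). The relatives outside the Slc25a symbols had 0.03 (Mtch1 -0.29 ± 0.12). Mpc1 and Mpc2, the pyruvate carrier genes, had only saturated probes. None of these medians kept its distance from 0 under every setting except those of the channels (0.04 to 0.53) and the biogenesis regulators (0.03 to 0.47).

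Of the 78 carrier probes, 12 failed the filter, which asked for a signal well above background on 2 or more arrays in Cy3 or in Cy5, and 7 of them had none on any array. Filtering left 66 probes of 43 genes (84.6% of probes, against 78.9% of all probes on the array). Slc25a21, Slc25a41 and Slc25a54 have no value here, and Slc25a4 and Slc25a5 have a signal but no measurable ratio.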

How the data were processed

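Spot intensity values were deposited by the authors as scanner output (per the file headers, from Feature Extraction 9.5.3.1), with Cy3 and Cy5 mean signals not normalized. The same files hold a log10 ratio, deposited after background subtraction and dye normalization per the file headers. The deposited series values are log2 ratios. Their slopes against the scanner ratio were 0.997, 0.999 and 0.998 and their medians -0.02, -0.0052 and -0.03, so scale and direction were settled from the values and the centring step was not.

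Mean signals were corrected with normexp (offset 50) and normalized by loess (span 0.3) within each array in limma 3.58.1 (R 4.3.3; data.table, version 1.17.8), controls at weight 0. Outlier spots (100 to 136 an array) were dropped and spots of a probe averaged. A probe was kept where Cy3 or Cy5 was well above background on 2 or more arrays. Two-sided moderated tests of the ratio against 0 (lmFit, eBayes) were adjusted by Benjamini-Hochberg across the 32486 probes, with a threshold of 0.05. An alternative offset was 16. Ratios carry the offset, which shrinks those of dim probes.

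Names were updated through a gene table of GRCm38.p6 (22951 probes by accession, 6659 by current symbol, 3109 by synonym, 8455 kept as named); positions are mm7, per the file headers. The members and lists were chosen with earlier results of these data known. Members were named when past the threshold, among the 3 smallest p-values of a role group, among the 5 largest mean differences each way, or with probes of opposite sign, and from each partner list the 3 smallest p-values. The labels call the samples biological replicates. The test was checked on simulated data. A few items are not reported here.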

Additional observations from a re-analysis of the deposited data

How the results depend on the processing

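The count of 2 called carrier probes moved with most choices. It was 33 with median centring, 5 with array weights, 1 with the authors' series values, 1 with probes above background in both dyes and 1 with 1 probe per gene. Calls over the whole array numbered 215 in the main fit, 13590 with median centring and 556 with array weights. It was 0 with the scanner software's log ratio, 0 with offset 16, 0 with saturated probes left out and 0 with saturated probes left out and an intensity trend, a setting chosen after seeing the data. Leaving out 1 sample gave 0 to 2 calls, 0 without sample 2 or without sample 3, and 2 without sample 1, of which Slc25a37 was one. The family median ran from -0.02 to 0.04 when a sample was left out and was 0.41 with median centring. Unsaturated carrier probes at an unadjusted p under 0.05 numbered 8, but 38 with median centring, 5 without background correction, 3 with 1 probe per gene, 14 with array weights and 2 to 8 with a sample left out. Partner genes at that level numbered 24, but 72 with median centring, 11 with the scanner ratio, 14 with the series values and 9 to 18 with a sample left out. Median centring turned and called 5 named probes: Slc25a1 (0.44), Slc25a11 (0.47), Slc25a17 probe 3 (0.34), Slc25a35 probe 2 (0.39) and Slc25a14 probe 2 (-0.42). No other setting reversed a named probe past the threshold. The cause was not tested. No paired analysis was possible because the 3 samples form 1 group, each set against the same pool.

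Limits are the 3 arrays, the missing dye swap and wild-type spread, saturated Cy5 spots on the brightest carriers, and probes near background, some with a very small SD between arrays.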
